A study of Homo sapiens with 8 samples.

Results

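The transcripts described here are the long intergenic noncoding RNAs (lincRNAs) that human embryonic stem cell cultures expressed, taken as the genes whose symbol is LINC followed by a number. For each gene the brightest probe set on average was used, out of those that name that gene alone, and the gene was kept when its mean deposited log10 signal reached 2.3, a signal of 199.5, in at least 1 of the 4 groups of stage and ethanol dose. The rule kept 70 of the 839 LINC genes with a probe set of their own, out of 19775 such genes in all. The members were thus selected on their array signal, and their levels are given as a description. Just inside the threshold lay LINC01424 with a highest group mean of 2.3, LINC00537 with 2.305, LINC01198 with 2.31 and LINC00342 with 2.315. Just outside it lay LINC02838 with 2.29, LINC02482 with 2.28, and LINC01963 and LINC00574 with 2.26 each.

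Long intergenic noncoding RNAs are transcribed between protein-coding genes, mostly by RNA polymerase II, and many are capped, spliced and polyadenylated without being translated into a protein. Many are present in few cell types, and several of those found in pluripotent cells or in early germ layers lie beside transcription factor genes whose expression they follow or affect. For most LINC genes no function is established, and the number in the symbol does not describe a role.

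RNA was measured on 8 expression arrays of cells labelled as the H9 human embryonic stem cell line, which is an established line, grown in mTeSR medium. The 4 groups were undifferentiated cells with 0 mM ethanol, undifferentiated cells with 20 mM ethanol, embryoid bodies with 0 mM ethanol and embryoid bodies with 20 mM ethanol, each held for 24 h and each measured on 2 arrays, A and B. Embryoid bodies are clumps grown in suspension, where pluripotent cells start to form many cell types. The labels do not say that the 2 arrays of a group came from separate cultures, so p-values measure only the spread between these samples, which may be technical.

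In a check of transcripts that separate cell lines, 4 of the 8 arrays failed to match the line in their labels, and these 4 made up 1 of the 2 stages. A difference between stages therefore cannot be told apart from a difference between lines, whereas each ethanol comparison lies within a stage. Array medians were 69.2 to 79.4 in undifferentiated cells, 85.1 in embryoid bodies without ethanol and 102 in embryoid bodies with ethanol, at a trimmed mean signal of 500 to 500.1. Of 11 pluripotency markers with a probe set, 11 lay above the array median on all arrays of both stages, and their summed signal was 132400 to 145600 in undifferentiated cells, 109600 to 113500 in embryoid bodies without ethanol and 96080 to 99530 with it. Of 8 endoderm and yolk sac markers, 5 lay above the median on all undifferentiated arrays and 8 on all embryoid body arrays, and the sum was 957 to 1266 against 39820 to 48140. The 10 mesoderm and mesenchyme markers summed to 13240 to 15850 in undifferentiated cells, 48220 to 49470 in embryoid bodies without ethanol and 71940 to 72920 with it. Neural markers summed to 17670 to 18410 and 21940 to 24980, and trophoblast markers to 528 to 753 and 4013 to 4432, with CGA and HSD3B1 under the median on all arrays. Endothelial and blood markers summed to 2069 to 2629 and 1675 to 2166, with CDH5, HBZ and PTPRC under the median on all arrays.

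Promoter windows are shown for the 3 members with the largest rise and the 3 with the largest fall between stages among those with an entry in RefSeq's promoter table, so that the loci behind the main contrast can be seen. Each window runs from 250 bases before to 50 bases after the annotated start, 5′ to 3′ on the gene's strand, in build GRCh38.p14, and the array files name no build. The LINC00261 window is chr20:22578593-22578892 on the minus strand, that of LINC01355 is chr1:23285469-23285768 on the minus strand, and that of LINC00479 is chr21:41715726-41716025 on the minus strand. These 3 transcripts were higher in embryoid bodies. The LINC01844 window is chr5:142745350-142745649 on the plus strand, that of LINC00545 is chr13:30882312-30882611 on the plus strand, and that of LINC01315 is chr22:42369159-42369458 on the minus strand. These 3 were higher in undifferentiated cells. Capitals mark matches on either strand to 6 short motifs. The octamer bound by OCT4 was searched as ATGCAAAT, while the TATA box was searched as TATAAA. The motif of the factor NF-Y was searched as CCAAT, while the motif of forkhead factors was searched as TGTTTAC. The motif of GATA factors was searched as AGATAA, while that of SOX factors was searched as CATTGT. No match of a motif overlapped one of another motif in the 6 windows shown.
LINC00261: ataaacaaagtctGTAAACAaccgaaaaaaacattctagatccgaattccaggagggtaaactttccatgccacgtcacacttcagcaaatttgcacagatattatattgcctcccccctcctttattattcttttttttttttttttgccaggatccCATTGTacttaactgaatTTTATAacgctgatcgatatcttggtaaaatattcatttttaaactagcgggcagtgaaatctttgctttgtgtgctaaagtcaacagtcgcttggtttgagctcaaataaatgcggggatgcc
LINC01355: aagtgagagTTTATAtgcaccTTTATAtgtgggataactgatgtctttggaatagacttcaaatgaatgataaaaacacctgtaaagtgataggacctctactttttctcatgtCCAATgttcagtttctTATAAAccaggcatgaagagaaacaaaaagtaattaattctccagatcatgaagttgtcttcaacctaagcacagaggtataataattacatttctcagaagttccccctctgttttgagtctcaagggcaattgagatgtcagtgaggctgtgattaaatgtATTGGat
LINC00479: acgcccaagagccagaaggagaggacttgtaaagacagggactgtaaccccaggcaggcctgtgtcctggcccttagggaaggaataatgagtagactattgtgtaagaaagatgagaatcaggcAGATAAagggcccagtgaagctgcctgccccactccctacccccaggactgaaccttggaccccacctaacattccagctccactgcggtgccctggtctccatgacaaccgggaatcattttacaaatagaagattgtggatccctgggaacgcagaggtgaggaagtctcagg
LINC01844: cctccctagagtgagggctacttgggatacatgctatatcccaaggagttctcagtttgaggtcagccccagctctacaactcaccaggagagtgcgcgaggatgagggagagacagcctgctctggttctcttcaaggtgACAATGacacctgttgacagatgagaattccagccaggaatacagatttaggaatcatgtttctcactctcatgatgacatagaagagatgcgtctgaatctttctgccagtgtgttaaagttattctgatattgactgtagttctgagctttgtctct
LINC00545: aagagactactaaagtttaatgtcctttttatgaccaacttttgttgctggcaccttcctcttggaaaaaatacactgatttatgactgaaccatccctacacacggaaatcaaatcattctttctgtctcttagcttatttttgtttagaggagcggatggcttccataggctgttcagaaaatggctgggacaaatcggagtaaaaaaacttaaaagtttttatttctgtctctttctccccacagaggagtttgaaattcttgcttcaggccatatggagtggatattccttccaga
LINC01315: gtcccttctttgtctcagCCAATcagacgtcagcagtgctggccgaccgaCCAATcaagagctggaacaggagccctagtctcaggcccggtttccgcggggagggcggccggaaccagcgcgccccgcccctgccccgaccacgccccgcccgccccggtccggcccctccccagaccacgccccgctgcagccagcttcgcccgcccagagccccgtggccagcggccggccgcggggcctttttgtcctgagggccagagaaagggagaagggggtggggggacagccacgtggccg

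In the LINC00261 window the forkhead letters lay 237 bases, the SOX letters 92 bases and the TATA letters 74 bases before the start. The LINC01355 window held TATAAA at 241, 229 and 120 bases before the start and CCAAT at 136 bases before it and again at base 44 after it. The LINC01315 window held CCAAT at 232 and 200 bases before the start, LINC00479 held AGATAA at 125 bases, LINC01844 held CATTGT at 109 bases, and LINC00545 held none of the 6 motifs. Of the 70 members, 54 had a promoter entry. CCAAT was found in 61.1% of these windows, against 36.0% of all 1578 LINC promoters and 35.7% of all 27305 promoters. TATAAA was found in 14.8%, against 16.3% and 12%, and TGTTTAC in 3.7%, against 4.75% and 3.41%. AGATAA was found in 5.56%, against 16.7% and 10.5%, and CATTGT in 9.26%, against 16.3% and 11%. ATGCAAAT was in 0 of the 54 windows, against 2.53% and 1.8%. The median GC content of the members' windows was 59.2%, between the 47.7% of all LINC promoters and the 62.7% of protein-coding promoters. Their ratio of observed to expected CpG was 0.544, against 0.25 and 0.763. Motif matches are counts of letters and were not tested against binding.

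Among the 70 members, 34 reached the threshold in all 4 groups, 14 in embryoid bodies at both doses and nowhere else, 5 in undifferentiated cells at both doses and nowhere else, and 17 in another combination. Chromosome 1 held 9 of them and chromosomes 12 and 13 held 6 each. All 70 were among the 14071 genes tested, which needed a signal above the array median on at least 2 arrays. A single probe set was available for 36 members, and 6 members were read by a probe set of the _x_at kind and 7 by one of the _s_at kind, whose probes can match other transcripts. On undifferentiated arrays 58 to 60 members lay above the array median, and on embryoid body arrays 68 to 70. The threshold was the same on all arrays, while array medians were higher in embryoid bodies. Such counts were not taken over all genes, so nothing is read from their balance between stages.

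**Figure D1:**
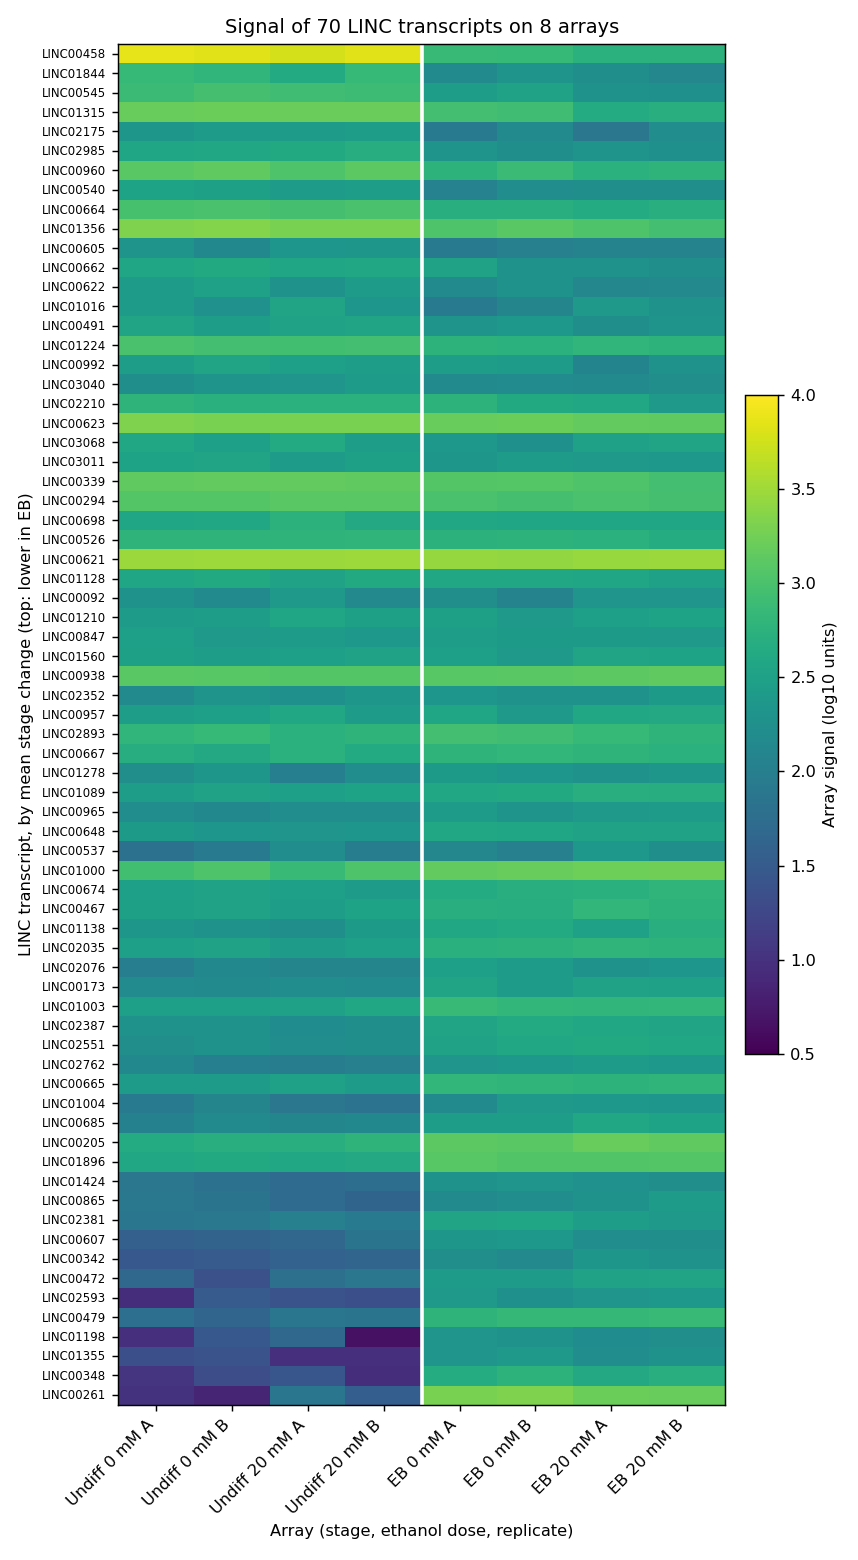
Signal of the 70 LINC members (rows, ordered by mean stage change) on each of the 8 arrays (columns), as log10 units in colour; EB is embryoid bodies and the white line separates the stages. The top rows such as LINC00458 are brighter in the 4 undifferentiated arrays, and the bottom rows such as LINC00261 in the 4 embryoid body arrays.

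LINC00458, a transcript described in pluripotent stem cells, was among the brightest members, and its arrays separated completely by stage. On the undifferentiated arrays it read 7413 and 6918 without ethanol and 5888 and 6918 with it, against 741 and 708 in embryoid bodies without ethanol and 537 and 562 with it. In embryoid bodies it was 9.89-fold lower without ethanol (log2 change -3.31 ± 0.10 SE, limma with Benjamini-Hochberg adjusted p = 2.25e-05) and 11.6-fold lower with it (-3.54 ± 0.10, adjusted p = 1.81e-05). Both of its other probe sets moved the same way, by -3.70 and -3.29 without ethanol and by -3.60 and -3.85 with it. In bulk samples such as these, fewer cells of a type and less RNA per cell cannot be told apart. The summed pluripotency markers were lower in the same embryoid bodies by a smaller factor, as their ranges show, and their part in this difference was not tested.

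Among the 34 members at the threshold in all 4 groups, whose choice did not require a difference, 22 changed between stages without ethanol, 13 higher and 9 lower in embryoid bodies. That is 64.7%, against 52.8% of all genes tested and 55.4% of the 9725 genes that meet the same level criterion, of which 26.3% were higher and 29.2% lower. With ethanol 22 again changed, 12 higher and 10 lower, against 56.3% of all genes and 59.8% of those at the same level, 26.3% higher and 33.5% lower. Their median log2 change was 0.01 and -0.02, and that of all genes tested 0.02 at each dose. The share that changed was thus near the background, at both doses.

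The members at the threshold in all 4 groups that fell beside LINC00458 included LINC00960, LINC00664, LINC01356, LINC01315 and LINC01224. In what follows, 4 signals of a stage stand in the order 0 mM A and B, then 20 mM A and B, with undifferentiated cells first. LINC00960 had signals of 1288, 1413, 1096 and 1318 on the undifferentiated arrays and 575, 776, 537 and 603 on those of embryoid bodies. It was 2.02-fold lower without ethanol and 2.11-fold lower with it (limma adjusted p = 0.00465 and 0.00321). LINC00664, whose nearest coding neighbour ZNF429 is a zinc finger gene, had 955, 977, 933 and 977 against 513, 513, 457 and 490. Its replicates lay close together and the fall was 1.88-fold and 2.02-fold (limma adjusted p = 0.000332 and 0.000208). LINC01356, which lies beside the lactate transporter gene SLC16A1, had 2089, 2239, 1995 and 1950 against 1096, 1259, 1096 and 891. It was the fourth brightest member by its mean and fell 1.84-fold and 1.99-fold. LINC01224 had 1000, 912, 871 and 912 against 575, 550, 631 and 575, and fell by 0.76 and 0.56 on the log2 scale.

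The rises within the same 34 members were led by LINC01896, LINC00205, LINC01003 and LINC00665. LINC01896, next to the zinc finger transcription factor gene SALL3, had signals of 389, 417, 389 and 407 on undifferentiated arrays and 1230, 1122, 1122 and 1175 on embryoid body arrays. Its log2 change was 1.54 ± 0.08 without ethanol and 1.53 ± 0.08 with it (limma adjusted p = 0.000106 and 0.000101). LINC00205, next to the protein O-fucosyltransferase gene POFUT2, had 457, 490, 513 and 589 against 1318, 1259, 1514 and 1413. Its log2 change was 1.45 and 1.41, and its 3 other probe sets at the threshold gave 0.93 to 1.495 without ethanol. LINC01003 had 302, 295, 316 and 389 against 724, 661, 646 and 661, a change of 1.21 and 0.90. LINC00665 had 275, 275, 316 and 269 against 661, 617, 575 and 617, a change of 1.21 and 1.03. Its other probe sets disagreed, with changes of -1.40 and -0.60 for those under the threshold and 0.18 for the third, without ethanol. Its direction thus depends on the probe set, and the mean of its probe sets gave -0.15 at each dose.

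Of the 8 brightest members, LINC00458, LINC01356 and LINC01000 changed most between stages, and the other 5 changed by at most 0.50 on the log2 scale. LINC00621, the highest by its mean over the 8 arrays, had 3020, 3090, 2951 and 3090 on undifferentiated arrays and 2754, 2692, 2884 and 2951 on embryoid body arrays. Its stage changes were -0.17 and -0.05, neither of which passed the test (limma adjusted p = 0.0803 and 0.554). LINC00938 had 1259, 1230, 1148 and 1175 against 1230, 1288, 1318 and 1380, with changes of 0.02 and 0.22, and the sign of both turned under median centring. LINC00623 fell by 0.35 and 0.50, LINC00294 by 0.30 and 0.43, and LINC00339 had -0.27, which did not pass, and -0.50, which did (limma adjusted p = 0.0776 and 0.00895). LINC01000 had 871, 1072, 741 and 1072 against 1445, 1549, 1698 and 1738, and rose by 0.63 and 0.95. LINC00667 rose by 0.50 without ethanol, while its value of 0.23 with ethanol did not pass and was -0.18 under median centring. Its other probe sets at the threshold rose more, by 1.28 and 1.38 without ethanol and by 1.16 and 1.36 with it. A further LINC00667 probe set, under the threshold, had -0.18 without ethanol and -0.15 with it. LINC00847 had 302, 240, 263 and 234 against 282, 257, 257 and 240, a change of 0.00 at each dose. LINC00621, LINC00623 and LINC01000 were read by _x_at probe sets, whose probes can match other transcripts. LINC00621 and LINC00623 had no other probe set. Signals of different probe sets are not comparable as levels, so the order of members by signal is an order of probe sets.

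The 5 members at the threshold in undifferentiated cells alone were LINC01844, LINC02985, LINC00540, LINC02175 and LINC00622, and since the rule used these levels their stage values are given without a test. LINC01844 had signals of 692, 631, 437 and 692 against 145, 204, 178 and 132. The log2 difference was -1.94 ± 0.28 without ethanol and -1.84 ± 0.28 with it, and the arrays of the stages did not overlap. LINC02985 had 363, 398, 427 and 479 against 204, 178, 204 and 182, a log2 difference of -1.0 and -1.23. LINC00540, beside the growth factor gene FGF9, had 339, 309, 275 and 288 against 112, 162, 178 and 174, a difference of -1.26 and -0.68. LINC02175 had 224, 269, 269 and 288 against 85.1, 148, 77.6 and 166, so replicate arrays of embryoid bodies differed widely and the standard error was 0.41. LINC00622 had 275, 316, 195 and 269 against 148, 191, 132 and 141, which places its lowest undifferentiated array just above its highest embryoid body array.

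LINC00545 and LINC00605 also stood higher in undifferentiated cells. LINC00545, next to MEDAG, a gene named for adipogenesis, had 759, 933, 832 and 794 in undifferentiated cells, 282 and 324 in embryoid bodies without ethanol and 200 and 182 with ethanol. All 4 undifferentiated arrays were above all 4 embryoid body arrays, by a log2 difference of -1.48 ± 0.13 without ethanol and -2.09 ± 0.13 with it. LINC00605 lay near the threshold with 204, 138, 219 and 224 against 91.2, 107, 118 and 115, a difference of -0.76 and -0.93.

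LINC00261 had the widest stage difference of all members. The transcript is described in definitive endoderm and lies beside FOXA2, which encodes an endoderm transcription factor. Undifferentiated arrays read 10.2 and 7.24 without ethanol and 74.1 and 35.5 with ethanol, all under the array medians, against 1950 and 2138 in embryoid bodies without ethanol and 1660 and 1514 with it. The log2 difference was 7.89 ± 0.35 without ethanol and 4.95 ± 0.35 with it, and both are imprecise because signals under the array median do not measure a level well. The endoderm and yolk sac markers, a list that includes FOXA2, were higher in the same arrays, and their part in this difference was not tested.

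**Figure D2:**
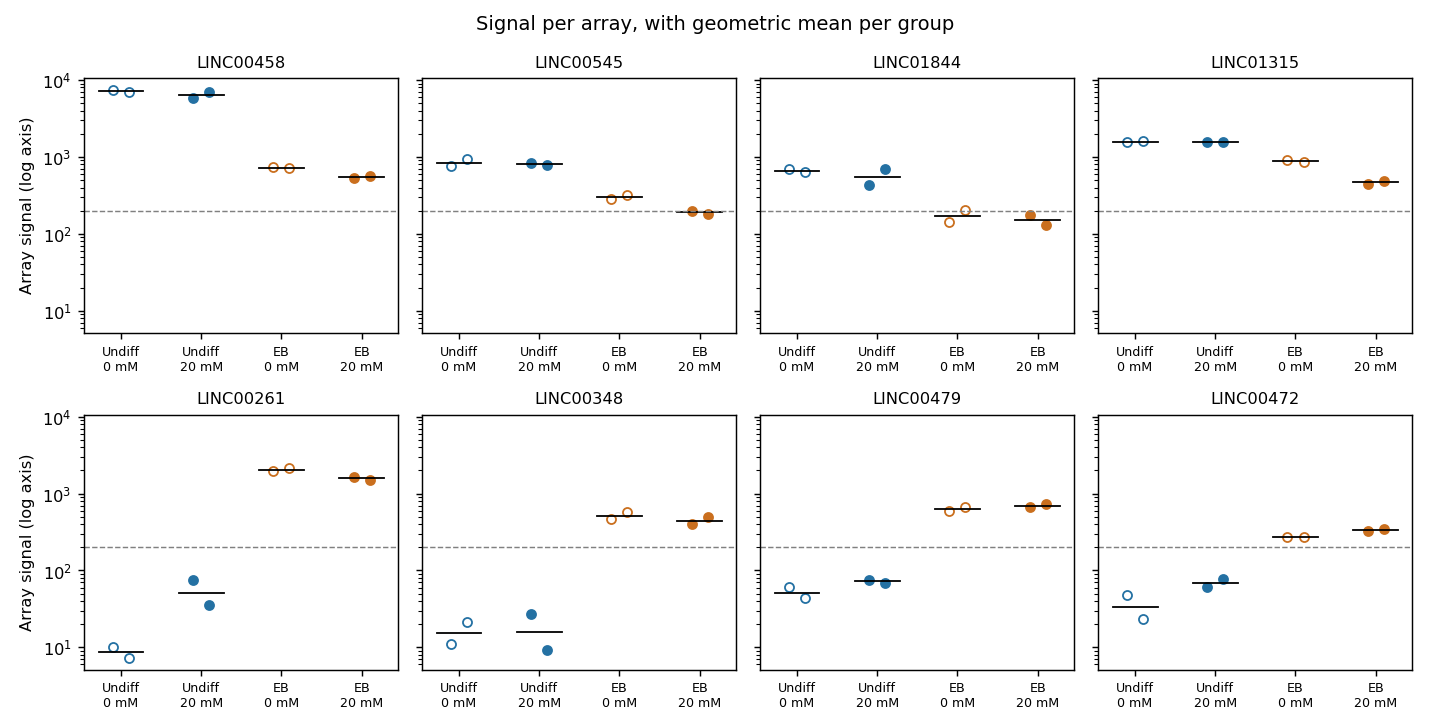
Signal on a log axis for 8 members, 1 panel each; open points are arrays at 0 mM and filled points arrays at 20 mM ethanol, bars are geometric means of 2 arrays, EB is embryoid bodies and the dashed line is the threshold of 199.5. The top row shows 4 members with all undifferentiated arrays above all embryoid body arrays, LINC01315 among them with 447 and 490 in embryoid bodies with ethanol; the bottom row shows 4 members in the opposite order.

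The other members at the threshold in embryoid bodies alone included LINC00348, LINC00479, LINC02593, LINC00472 and LINC02381, and these too are described without a test. LINC00348, whose neighbour DACH1 encodes a nuclear cofactor of the eye and limb development network, had 11, 21.4, 26.9 and 9.12 on undifferentiated arrays and 468, 575, 407 and 490 on embryoid body arrays. The log2 difference was 5.08 ± 0.55 and 4.83 ± 0.55, with undifferentiated signals far under the array medians. LINC00479 had 60.3, 43.7, 75.9 and 69.2 against 603, 676, 676 and 724, a difference of 3.64 ± 0.17 and 3.27 ± 0.17. The stages lay far apart and replicate arrays close together. LINC02593 had 9.12, 32.4, 25.1 and 22.9 against 251, 182, 209 and 229, and its other probe set, at signals of 6.31 and 7.41 without ethanol, did not follow it. LINC00472, described as reduced in several tumours, had 47.9, 23.4, 61.7 and 77.6 against 269, 275, 324 and 347, a difference of 3.02 and 2.28. Its other probe set gave 4.52 and 4.44. LINC02381 had 75.9, 79.4, 107 and 85.1 against 355, 363, 288 and 246, a difference of 2.21 and 1.48.

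The remaining 8 transcripts of that class had smaller differences. LINC00685, LINC00173, LINC02387, LINC02551, LINC02762, LINC02076 and LINC00965 differed by 0.61 to 1.26 without ethanol, and the arrays of the stages did not overlap for any of these 7. LINC01278 had 170, 224, 102 and 166 against 257, 219, 195 and 224, and its stages overlapped.

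Members with another combination of groups held 4 of the 10 largest rises. LINC01355 had signals of 22.9, 25.1, 9.33 and 9.55 in undifferentiated cells, all under the array medians, and 209, 240, 166 and 195 in embryoid bodies. The log2 difference was 3.22 ± 0.12 and 4.25 ± 0.12, and its other probe set gave 1.10 and 1.0. LINC01198 had 9.77, 29.5, 47.9 and 4.57 against 209, 200, 159 and 170, with a standard error of 1.10 that reflects the spread of its dim arrays. LINC00342 had 28.8, 32.4, 39.8 and 43.7 against 170, 141, 224 and 191, and its 2 other probe sets without a cross-matching suffix gave 1.84 and 2.11 without ethanol. LINC00607 had 38.0, 40.7, 45.7 and 70.8 against 224, 234, 162 and 178, a difference of 2.54 and 1.58.

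Over all 70 members, 33 were called higher and 17 lower in embryoid bodies without ethanol, and 32 higher and 21 lower with it. These counts, 71.4% and 75.7%, stand against 52.8% and 56.3% of all genes tested and 57.7% and 62.1% of genes that meet the same level criterion. Of all genes tested, 28.1% were higher and 24.7% lower without ethanol, and 29.2% higher and 27.1% lower with it. The members' counts include 36 members that were under the threshold in at least 1 group, which favours a difference, so nothing is read from them. The median log2 change of the 70 was 0.25 without and 0.22 with ethanol. Scaling moved the balance of directions: median centring, which shifts the median of all genes to -0.27 and -0.40, gave 24 higher and 26 lower without ethanol and 25 higher and 28 lower with it. Quantile normalisation, with medians of -0.09 and -0.11, gave 26 higher and 23 lower, and 28 higher and 25 lower.

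The 2 stage comparisons took their mean differences from separate arrays. Their tests shared a common estimate of the spread from all 8 arrays, so the calls at the 2 doses are not independent. Of the 34 members at the threshold in all 4 groups, 19 were called in the same direction at both doses with stage arrays that did not overlap, 11 higher and 8 lower in embryoid bodies. That is 55.9%, against 43.8% of all genes tested and 46.8% of the genes at the same level. Over all 70 members the count was 46, 31 higher and 15 lower, and it includes members that the rule kept through the stage where they are high, so it is a description only. All 46 kept their sign at both doses under median centring and under quantile normalisation. The stage changes at the 2 doses had the same sign in 66 of 70 members and correlated across members by Pearson's r of 0.947 and Spearman's coefficient of 0.958, against 0.911 and 0.868 over all genes tested. These values carry the same selection, genes are not independent replicates, and the 2 doses share the stages and lines. Also as a description, arrays did not overlap between stages for 31 of the 70 members higher in embryoid bodies and 21 of 70 higher in undifferentiated cells. Of the 14071 genes tested, the counts were 4278 (30.4%) and 3911 (27.8%). The rule favours a stage difference in members under the threshold in at least 1 group, so nothing is read from the members' counts.

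**Figure D3:**
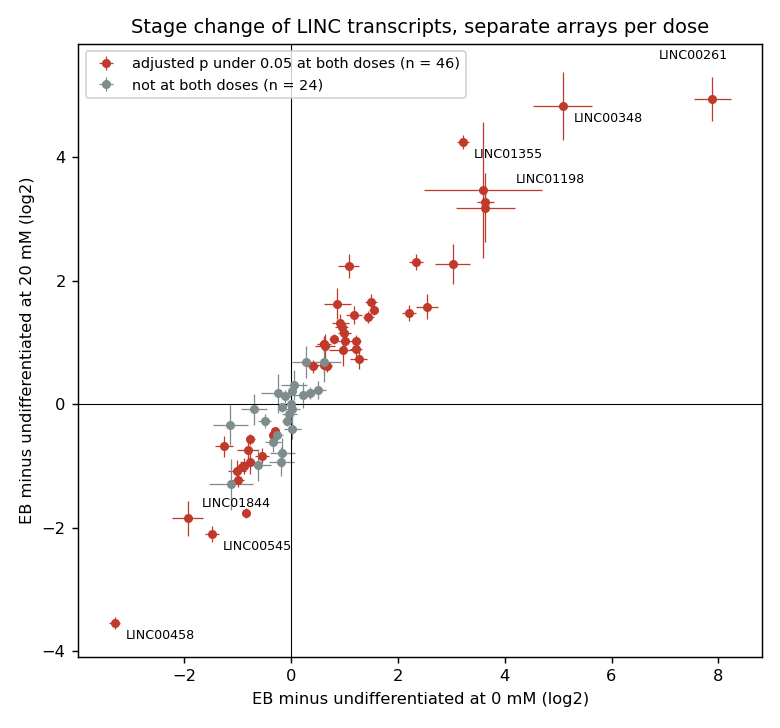
Log2 stage change, embryoid bodies (EB) minus undifferentiated cells, at 0 mM (horizontal) and 20 mM ethanol (vertical) for the 70 members, with bars of 1 SE and 2 arrays per group; red points have adjusted p under 0.05 at both doses. For members under the threshold in at least 1 group the rule favours a difference, so their colour is a description only. The points lie along a rising line from LINC00458 at -3.31 and -3.54 to LINC00261 at 7.89 and 4.95.

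Other probe sets of the members gave a partial check of the stage values. The 34 members with more than 1 probe set had 72 others, of which 17, for 13 genes, reached the threshold. Of these 17, 15 had the sign of the chosen probe set, and 12 of 13 did where the member's own change was 0.5 or more. The exceptions were LINC00491, with 0.27 against -0.55 without ethanol, and LINC01128, with 0.83 against -0.03.

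Each member was set beside its nearest protein-coding gene in the RefSeq gene table, to see how far the loci moved together. FOXA2, beside LINC00261, read 66.1, 93.3, 66.1 and 105 on undifferentiated arrays and 1072, 1122, 1000 and 1148 on embryoid body arrays, and rose by 3.80 ± 0.26 without ethanol and 3.69 ± 0.26 with it. DACH1, beside LINC00348, had 240, 275, 355 and 372 against 3162, 2951, 3236 and 3548, and rose by 3.57 ± 0.10 and 3.22 ± 0.10. Both transcripts and both neighbours thus stood higher in embryoid bodies. MEDAG, beside LINC00545, had 251, 263, 191 and 219 against 93.3, 93.3, 107 and 132, and fell by 1.46 and 0.78. SAMD11, beside LINC02593, rose by 1.71 and 1.78, and OGFRL1, beside LINC00472, rose by 0.76 and 1.10.

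Other pairs moved apart. FGF9 rose by 1.71 and 1.96 where LINC00540 was lower, and PAM, which encodes a peptide-amidating enzyme, rose by 1.16 and 1.41 where LINC00491 was lower. MREG, a melanosome transport gene, fell by 1.0 and 1.03 where LINC00607 was higher. HNRNPR, which encodes an RNA-binding protein and neighbours LINC01355, had -0.03 and 0.03 and did not pass. RIPK4, a kinase gene beside LINC00479, rose by 0.58 without ethanol, and its 0.23 with ethanol did not pass. NFAM1, beside LINC01315, had signals of 67.6 to 178 on all arrays and values of 0.28 and -0.33, neither of which passed.

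All 70 members had a protein-coding neighbour, 44 of these neighbours were tested, and 6 overlapped the member's span. A neighbour whose symbol begins with ZNF or ZFP, the zinc finger genes, was found for 6 members. The mean stage change had the same sign in 24 of 44 pairs, and in 19 of 33 pairs whose member was called at both doses. Across the 44 pairs Pearson's r was 0.38 and Spearman's coefficient 0.13, and r was 0.20 without LINC00261. These are descriptions across genes on the same arrays.

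**Figure D4:**
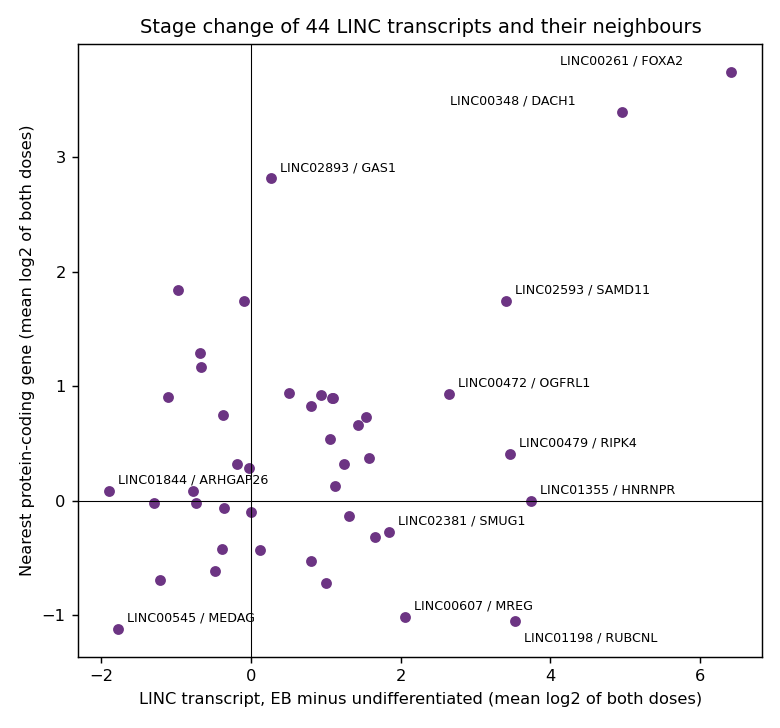
Mean log2 stage change over both doses, embryoid bodies (EB) minus undifferentiated cells, of 44 members (horizontal) and of the nearest protein-coding gene (vertical); each point is 1 pair. Of the 44 pairs, 24 lie in the quadrants of equal sign, with LINC00261 and FOXA2 at the top right and LINC00607 and MREG at the lower right.

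With ethanol, 1 of the 70 members passed the test, LINC01315 in embryoid bodies, where it was lower. In undifferentiated cells limma called 0 of 70 members after Benjamini-Hochberg adjustment, against 0.00711% of all genes tested, with a median log2 change of 0.00. An unadjusted p under 0.05 was found for 8 members, or 11.4%, against 7.01% of all genes. All 8 were among the 36 members under the threshold in at least 1 group, and 0 among the 34 at it in all 4 groups. The rule can favour a difference in those 36, so nothing is read from this share. A fit of the undifferentiated arrays alone called 0 of the 59 members it tested. It also called 0 of all 13222 genes, so nothing is read from it about the members. In embryoid bodies 1 member was called, lower, against 0.0711% of all genes tested in either direction and 0.0284% lower, with a median of -0.02. An unadjusted p under 0.05 was found there for 18 members, or 25.7%, against 22.3% of all genes. Of these 18, 9 were among the 34 members at the threshold in all 4 groups. The difference between the ethanol effects of the 2 stages was called by limma for 0 members and 0 of the 14071 genes tested, with a smallest adjusted p of 0.187 among members. An unadjusted p under 0.05 was found for 7 of the 70 members, against 13.0% of all genes. A trended and robust variance called 2 members and 31 genes in all. The 2 arrays of each dose did not overlap in undifferentiated cells for 15 of the 70 members higher and 13 of 70 lower. In embryoid bodies this held for 20 of 70 higher and 20 of 70 lower. Of the 14071 genes tested, 2168 (15.4%) were higher and 1697 (12.1%) lower without overlap in undifferentiated cells. In embryoid bodies 4138 (29.4%) were higher and 3959 (28.1%) lower. The members' counts carry their selection on level and are a description.

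The member called in embryoid bodies was LINC01315. It read 1549 and 1622 on the undifferentiated arrays without ethanol and 1585 and 1585 with it, then 912 and 851 in embryoid bodies without ethanol and 447 and 490 with it. The embryoid body arrays of the 2 doses did not overlap, and the undifferentiated arrays did. With ethanol it fell 1.88-fold in embryoid bodies (log2 change -0.91 ± 0.08, n = 2 arrays per group, limma adjusted p = 0.0488) and was at 0.00 in undifferentiated cells. The difference of these effects, -0.91 ± 0.11, did not pass (limma adjusted p = 0.187). The call is close to its limit: it passed in 4 of 17 alternatives, with log2 changes of -1.18 to -0.85 and adjusted p of 0.00444 to 0.158, and it was lost when any 1 of the 8 arrays was left out. Between stages LINC01315 was 1.80-fold lower in embryoid bodies without ethanol and 3.39-fold lower with it (limma adjusted p = 0.000631 and 5.89e-05). The summed mesoderm and mesenchyme markers were higher and the summed pluripotency markers lower in the same embryoid body arrays with ethanol. The other marker sums differed too. Endoderm and yolk sac had 47080 to 48140 with ethanol against 39820 to 40190 without it, and neural 21940 to 23120 against 24460 to 24980. The endothelial and blood sum was higher and the trophoblast sum lower with ethanol. The part of these markers in the fall of LINC01315 with ethanol was not tested.

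Other members with small p-values in embryoid bodies did not pass. LINC00545, at 282 and 324 without ethanol and 200 and 182 with it, had -0.66 ± 0.13 (limma adjusted p = 0.091). LINC02893, beside the hedgehog co-receptor gene GAS1, had 891 and 832 against 692 and 603, a value of -0.41. LINC00458 had -0.40 ± 0.10 (limma adjusted p = 0.119), and LINC00992, at 282 and 269 against 120 and 195, had -0.85 ± 0.23. On the other side LINC01016 had 85.1 and 123 without ethanol and 251 and 191 with it, a value of 1.10 ± 0.33 (limma adjusted p = 0.148). LINC03068 had 0.70, LINC00342 had 0.41, and LINC01560 and LINC00467 had 0.33 each, none of which passed.

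Most of the members with small p-values in undifferentiated cells were dim there. LINC00261 had 10.2 and 7.24 without ethanol and 74.1 and 35.5 with it, a value of 2.57 ± 0.35 that did not pass (limma adjusted p = 0.245). LINC01355 had 22.9 and 25.1 against 9.33 and 9.55, which gave a negative value with an adjusted p of 0.0692 from limma. Both lay under the array medians at both doses. The other probe set of LINC01355, dim as well, went the other way, from 12.6 without ethanol to 25.1 with it, a value of 1.0. LINC00472 had a value of 1.05, LINC00607 of 0.53, LINC00479 of 0.50 and LINC00342 of 0.45, with signals of 23.4 to 77.6. LINC00865 had -0.65, LINC01424 -0.33 and LINC01278 -0.58, and LINC02893, at 646 and 708 against 550 and 589, had -0.25. Probe sets without cross-matching suffixes turned the sign for LINC00342 and LINC01278 in undifferentiated cells and for LINC00467 in embryoid bodies.

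**Figure D5:**
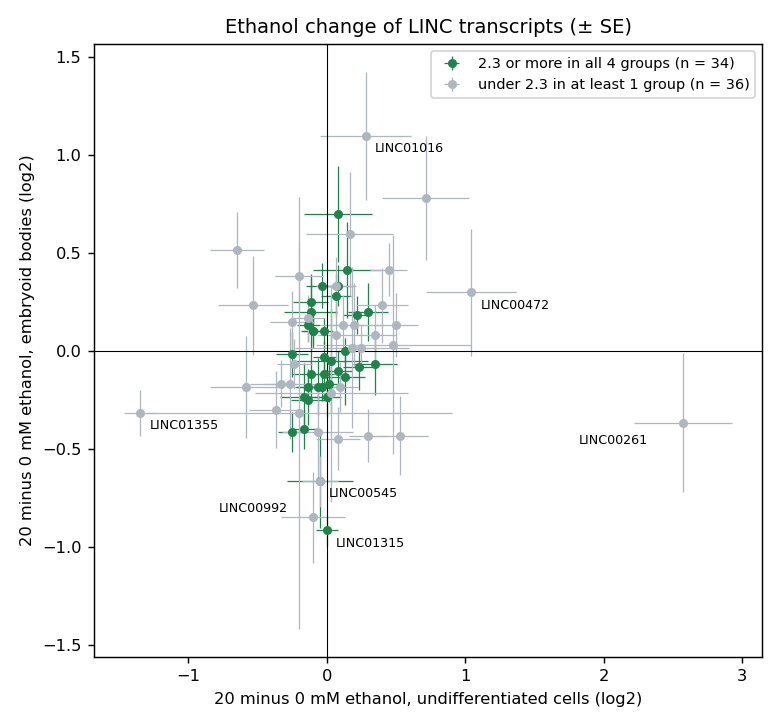
Log2 change with 20 mM ethanol in undifferentiated cells (horizontal) and in embryoid bodies (vertical) for the 70 members, with bars of 1 SE and 2 arrays per group; green points reached the threshold in all 4 groups. LINC01315 lies at 0.00 and -0.91, and the point of LINC00261 at 2.57 comes from signals under the array medians.

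Members of a fixed list of 20 LINC transcripts from stem cells, germ layers and earlier results of these arrays were also followed. LINC00458, LINC00261, LINC01356, LINC00472, LINC00665, LINC00667, LINC01315, LINC00545 and LINC00479, 9 in all, are members. LINC00473, LINC02525, LINC01741, LINC00632, LINC01551 and LINC01116 stayed under the threshold, the highest being LINC01741 at 2.125 and LINC02525 at 2.045. LINC01108, LINC00678, LINC00461, LINC00617 and LINC01405 had no probe set of their own.

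Other classes of noncoding RNA are given beside the members as counts. Of all genes tested, 52.8% were called between stages without ethanol and 56.3% with it. Of 284 tested antisense genes, those with -AS in the symbol, 126 were called without ethanol, or 44.4%, and 118 with it, or 41.5%. Of 12 tested miRNA host genes 7 and 5 were called, and of 6 tested SNHG genes, the hosts of small nucleolar RNAs, 2 and 3. With ethanol in embryoid bodies these 3 classes had 0 calls by limma, with 54, 4 and 1 genes in this order at an unadjusted p under 0.05. Over all genes tested 0.0711% were called there, and 22.3% had an unadjusted p under 0.05. Of 16 tested noncoding RNAs with names of their own, 11 and 12 were called between stages and 1, DNM3OS, was higher with ethanol in embryoid bodies. The call of DNM3OS passed in 3 of 17 alternatives. The 34 members at the threshold in all 4 groups, with 22 called at each dose, were not tested against these classes.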

How the data were processed

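The deposited values are log10 array signals of 8 arrays with 54675 probe sets each. The submitters' processing notes name RMA, but the deposited values, with a common trimmed mean signal and many values far under it, have the form of scaled single-array signals; the genome build is not given in the sources used here. Values were converted from log10 to log2 without further scaling, and signals are their antilogs. Of the probe sets, 41097 named 1 gene, 1801 several and 11777 none in the platform annotation. No value column was left unmapped to a sample.

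A linear model with a mean for each of the 4 groups was fitted in limma 3.58.1 (R 4.3.3) to the log2 values of 14071 genes above the array median on at least 2 of the 8 arrays, leaving 4 residual and 1.81 prior degrees of freedom. A Benjamini-Hochberg adjusted p under 0.05 over all genes was taken as called. Errors are standard errors of the fitted change. The fit was tested on simulated data. Tables and figures used Python 3.11.15, pandas 2.3.3, NumPy 2.4.6 and matplotlib 3.10.9.

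The members, lists and named genes were chosen with earlier results of these data known. Named members are the 8 brightest, the 10 largest rises and 10 largest falls between stages among those called at both doses without overlap, the called members or the 5 smallest p-values in each direction per ethanol contrast, the fixed list, the edge of the threshold, members of 1 stage and neighbouring genes; members outside this rule were named after their values were seen. Neighbours are by name from RefSeq's gene table and promoters from its promoter table. Deviations of like-lettered arrays correlated by -0.026 to 0.049, so the letters were not used as pairs. Alternatives were other filters, scalings, probe set choices, variance models, a replicate block, fewer arrays and other thresholds for membership. The number of arrays limits the precision.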

Additional observations from a re-analysis of the deposited data

How the results depend on the processing

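The number of LINC members was 142 at a threshold of 2.0, 34 at 2.6, 34 when all 4 groups had to reach 2.3 and 44 with the mean of all probe sets. Stage calls among the members numbered 23 without ethanol and 24 with it under a filter at the 75th percentile, which kept 27 members. That was 85.2% and 88.9%, against 65.8% and 70.3% of all genes. Under the other settings with 2 arrays per group the counts stayed within 1.5 times of 50 and 53. The members' shares there were 60.0% to 78.6% without ethanol, against 33.0% to 59.1% of all genes. With ethanol they were 65.7% to 77.1%, against 36.4% to 64.6%. These counts carry the selection of the members and are a description. Ethanol calls in embryoid bodies, 1 in the report, were 0 with the compared arrays alone, with no filter and with the mean of all probe sets. They were also 0 without _x_at and _s_at probe sets and with a replicate block. Of all genes, 0.0%, 0.0101%, 0.00808%, 0.0% and 0.0% were called in these settings, in this order. A count of 0 members is thus near the share over all genes. Member calls were 2 under the 75th percentile filter and 3 with a trended and robust variance. Under median centring they were 16, all lower, and the median over all genes became -0.25. The last 3 counts, 7.41%, 4.29% and 22.9% of the members tested, stand against 5.28%, 6.81% and 27.6% of all genes. Fits with 1 array removed leave 1 array in a group, and their call counts are not given here. Calls of the difference between ethanol effects were 1 under the 75th percentile filter and 2 with a trended and robust variance, against 13 and 31 genes in all. The replicate block gave 0 ethanol calls in both stages, among members and among all genes. The replicate letters are names only and do not pair the arrays.

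Over 90 pairs of a named member and a comparison, 1458 values under alternatives gave 1340 on the same side, 77 no longer past the threshold, 28 newly past it and 13 reversed. Of these pairs, 54 were called stage pairs. Many belong to members named because they were called at both doses, or kept through the stage where they are high. The counts above are thus a description only. Reversed were LINC00621 with ethanol between stages (0.06, quantile normalisation), LINC00938 between stages without ethanol (-0.04 mean of probe sets, -0.27 median centring, -0.06 quantile normalisation, -0.02 to 0.05 with 1 array removed at a time, negative without replicate B of the 0 mM embryoid bodies) and with ethanol (-0.20, median centring), LINC00342 with ethanol in undifferentiated cells (-0.24 mean of probe sets, -0.75 without _x_at and _s_at), LINC01278 there (0.30), LINC00467 with ethanol in embryoid bodies (-0.07), LINC00665 between stages (-0.15 and -0.15, mean of probe sets) and LINC00667 with ethanol between stages (-0.18, median centring). The cause was not tested. Signals under the array medians limit the dim members.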

Other observations

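Below the threshold, 104 further LINC genes were tested, and they are dim on most arrays. Between stages 26 were called without ethanol and 31 with it, or 25.0% and 29.8%, against 52.8% and 56.3% of all genes tested. With ethanol in embryoid bodies 84 of the 104 had a positive value and their median log2 change was 0.47, against 0.02 for all genes tested and -0.02 for the 70 members, while array medians rose from 85.1 to 102 between the same groups. The part of this shift in their values was not tested.

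LINC02525 was the sole one of them called with ethanol in embryoid bodies, with signals of 83.2 and 93.3 without ethanol and 9.55 and 5.50 with it, a log2 change of -3.60 ± 0.27 (limma adjusted p = 0.0438). The call passed in 4 of the 15 alternatives that tested it, with adjusted p of 0.00899 to 0.123. In undifferentiated cells it had 69.2 and 85.1 without ethanol and 102 and 120 with it, a value of 0.53 that did not pass. Its signals with ethanol in embryoid bodies lay far under the array median, so the size of the fall is imprecise. LINC01741, at 79.4 and 85.1 without and 132 and 135 with ethanol in embryoid bodies, had 0.70 ± 0.08, which did not pass (limma adjusted p = 0.0592).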
